A study of Mus musculus with 12 samples.

Results

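The constitutive subunit genes of the proteasome were followed in the liver and in a macrophage line with and without esculetin. The members were the mouse protein-coding genes whose symbol is Psma, Psmb, Psmc or Psmd with a number, without the immunoproteasome subunits Psmb8, Psmb9 and Psmb10. The rule gave 36 genes of the 55357 identifiers in each count table. The core genes numbered 16, with 8 Psma and 8 Psmb genes, and the cap genes numbered 20, with 6 Psmc and 14 Psmd genes.

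RNA was sequenced in 12 libraries that formed 4 groups of 3. The liver libraries came from wild-type male C57BL6/J mice of 8 to 9 weeks, which ate a control diet (10% of kcal from fat) for the first 4 days, and HFD, a diet with 60% of kcal from fat, for the last 3 days. All of these mice were gavaged over those 7 days. The control group received 2.5% Tween-80, and the treated group esculetin, a coumarin from plants, at 90 mg/kg/d. The study dissolved esculetin for gavage in 2.5% Tween-80. Per the study, each liver library was a pool of a pair of mice. RAW264.7 cells, a mouse macrophage line, were given 25 ug/mL of DIL-oxLDL, an oxidized lipoprotein carrying a dye, for 24 hr. They received it together with DMSO or with esculetin at 40 ug/mL, which the study dissolved in DMSO. Nothing in the labels says that the libraries of the cells came from separate cultures, so their p-values measure the spread between these libraries, which may be technical.

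The proteasome degrades proteins that carry ubiquitin chains. Its core is a barrel of stacked rings: the outer rings are made of Psma (alpha) subunits, which gate the entrance, and the inner rings of Psmb (beta) subunits, of which Psmb5, Psmb6 and Psmb7 carry the proteolytic sites. The cap that sits on the core holds a ring of Psmc ATPases, which unfold the substrate and thread it into the core, and Psmd subunits, which bind and remove ubiquitin and form a lid. Subunit genes are known to be induced together by the transcription factor Nrf1 (Nfe2l1) when proteasome activity falls, through antioxidant response elements in their promoters.

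The promoters of the members are shown because several known routes to these genes act there. RefSeq promoters, in a table made on build GRCm38.p6, were at hand for 29 of the 36 members, in 31 windows. For each window the 250 bases before the transcription start were searched, and all 31 windows matched 1 place in GRCm39. Promoters of Psma8, Psmb1, Psmb2, Psmb7, Psmc3, Psmd3 and Psmd7 were not used here. The core of the antioxidant response element, TGACNNNGC on either strand, was present before 5 of the 29 members (17.2%), beside 12% of all protein-coding genes in the table. Each line below gives such a match, with the motif in capitals and up to 10 bases on each side, read 5′ to 3′ on the strand of the gene, so that the matches of Psmc6 and Psmd12, which lie on the other strand, appear as the reverse complement.
Psmb5, chr14:54855481-54855509, minus strand: cgtgaagttgTGACGTCGCggcgttgcca
Psmb6, chr11:70416164-70416182, plus strand: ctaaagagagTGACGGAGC
Psmc6, chr14:45567044-45567072, plus strand: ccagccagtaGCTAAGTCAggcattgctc
Psmd12, chr11:107370104-107370125, plus strand: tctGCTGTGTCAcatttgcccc
Psmd9, chr5:123366212-123366240, plus strand: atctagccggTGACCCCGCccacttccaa
All 5 matches lay upstream of the canonical transcript in the GENCODE annotation of GRCm39, and the match of Psmd9 also lay in an intron of another transcript.

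The ETS motif CCGGAAGT, a site of a large family of activators at housekeeping promoters, was found on either strand before 4 of the 29 members (13.8%), beside 4.26% of all protein-coding genes. All of these members belong to the cap, where they were 4 of 17 genes (23.5%), and none of the 12 core genes held the motif. The matches are written in the same way, and those on the other strand read ACTTCCGG.
Psmc1, chr12:100076422-100076449, plus strand: tggtggatgcACTTCCGGcggtggcgat
Psmc2, first window, chr5:21990178-21990205, plus strand: accagtgagcACTTCCGGgatggggctc
Psmc2, second window, chr5:21991710-21991737, plus strand: gcgcggagctACTTCCGGtggggaagag
Psmd6, chr14:8348763-8348790, plus strand: agagacgcgaCCGGAAGTcagactggcg
Psmd12, chr11:107370326-107370353, plus strand: tgagcgggcgACTTCCGGtgcgagtgac
In the GENCODE annotation 4 of these 5 matches fell in an exon of the gene, and the match in the first window of Psmc2 fell upstream of the canonical transcript and in an intron of another. The CCAAT box, bound by NF-Y, was present in 12 of the 29 members (41.4%, beside 39.5% of all genes) and the GC box GGGCGG in 17 (58.6%, beside 45.8%). The C/EBP motif TTGCNNAA was present before Psma6 and Psmb3 (6.9%, beside 10.5%). A motif match is a description of the letters and not of a bound site.

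In RAW264.7 cells, 20 of the 35 members tested were called, which means an adjusted p under 0.05 in the quasi-likelihood test of edgeR. Of these, 11 were higher and 9 lower with esculetin. The share of members called, 57.1%, stood beside 57.7% of all 13277 genes tested, of which 28.7% were higher and 29.0% lower, so the members were called about as often as genes in general. Of the 35 members, 4 were called with a change over 1.5-fold, all of them genes of the cap, beside 36.5% of all genes tested. The core gave 3 higher and 5 lower genes with a median log2 fold change of -0.16, and the cap 8 higher and 4 lower with a median of 0.19, beside a median of -0.01 over all genes. Of the members, 22 had groups that did not overlap, beside 64.1% of all genes. Levels are given as CPM, the counts of a gene scaled to a common library size, and are relative to the sequenced total, so that fewer cells of a type and less RNA per cell cannot be told apart in these data.

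**Figure D1:**
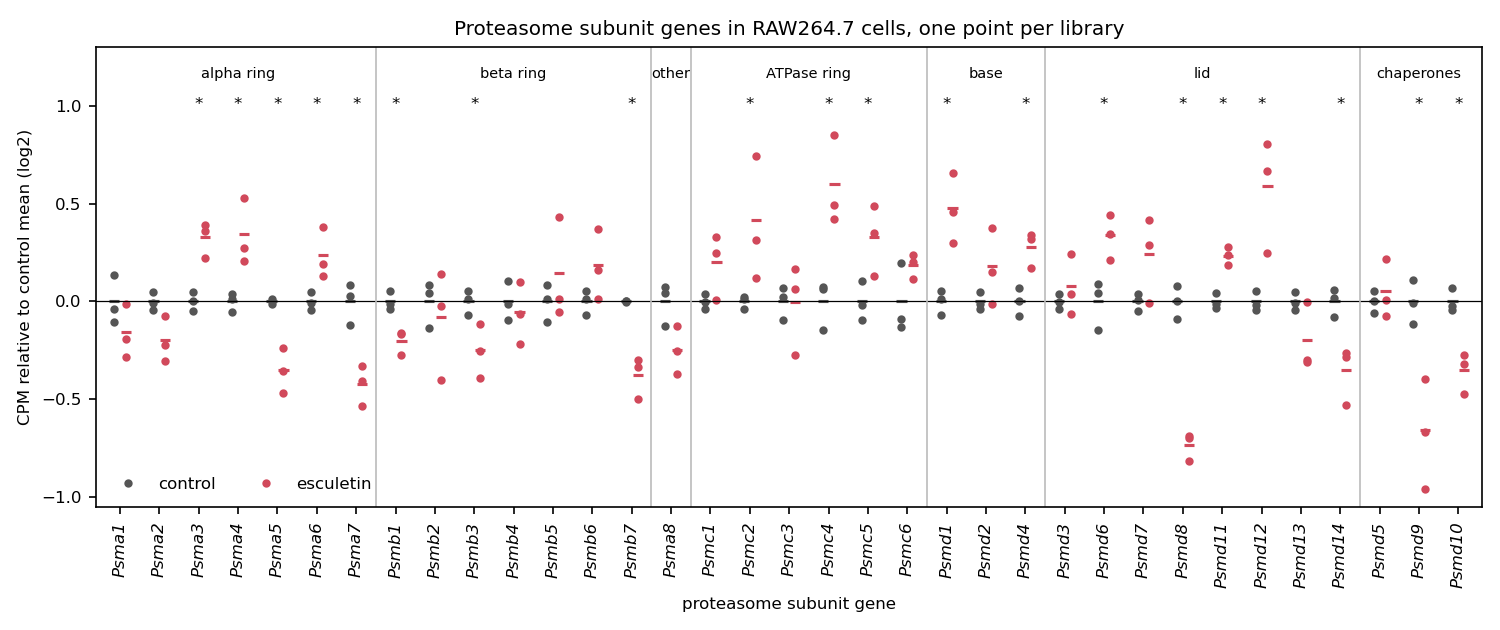
Level of each tested member in RAW264.7 cells, as CPM relative to the mean of the control libraries on a log2 scale. Each point is 1 library (3 control in grey, 3 esculetin in red), each bar a group mean, and an asterisk a member called by edgeR. Most esculetin points of the ATPase ring and base lie above 0, and those of Psmd8 and Psmd9 lie furthest below it, with the lowest point in Psmd9.

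The alpha ring was split. Of its 7 genes, Psma3, Psma4 and Psma6 rose, Psma5 and Psma7 fell, and Psma1 and Psma2 were not called. Over all genes tested, 28.7% were called higher and 29.0% lower. Psma7 had 135, 156 and 150 CPM in the control libraries and 102, 111 and 117 CPM with esculetin. All esculetin values lay below all control values, and the log2 fold change was -0.42 (SE 0.09, edgeR adjusted p = 0.00208). Psma5 went from 204, 206 and 208 CPM to 149, 161 and 175 CPM, a log2 fold change of -0.35 (SE 0.08, adjusted p = 0.00385). In the opposite direction, Psma4 went from 103, 98.5 and 105 CPM to 118, 123 and 147 CPM (log2 fold change 0.34, SE 0.10, adjusted p = 0.0100), and its groups did not overlap. Psma3 had 44.9, 46.4 and 43.4 CPM in the control cells and 52.5, 57.7 and 59.0 CPM with esculetin, a log2 fold change of 0.33 (SE 0.09, adjusted p = 0.00855). Psma6 rose by 0.24 on the log2 scale. The call of Psma6 was lost in 8 of 16 alternative fits and that of Psma3 in 1, whereas those of Psma4, Psma5 and Psma7 were kept in all 16. Psma1 had a log2 fold change of -0.16 (SE 0.10, adjusted p = 0.194) and Psma2 one of -0.20 (SE 0.09, adjusted p = 0.0723).

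In the beta ring 3 of 7 genes were called lower and 0 higher. The share called was 42.9%, beside 57.7% of all genes tested, of which 28.7% were higher and 29.0% lower. Psmb7, which carries the trypsin-like site, had 82.7, 83.2 and 83.0 CPM in the control cells and 58.6, 65.7 and 67.4 CPM with esculetin. The log2 fold change was -0.38 (SE 0.09, adjusted p = 0.00293). The other proteolytic subunits were not called. Psmb5, which carries the chymotrypsin-like site, had 21.1, 22.9 and 24.1 CPM in the control and 21.9, 22.9 and 30.6 CPM with esculetin, a log2 fold change of 0.15 (SE 0.14, adjusted p = 0.383). Psmb6, which carries the caspase-like site, had 75.3, 81.8 and 79.6 CPM and then 79.6, 88.3 and 102 CPM, a log2 fold change of 0.19 (SE 0.10, adjusted p = 0.124). In both the groups overlapped. Among the structural beta subunits, Psmb1 fell by 0.20 and Psmb3 fell by 0.25 on the log2 scale, and both calls were lost in 7 of 16 alternative fits. Psmb2 (-0.076, SE 0.13) and Psmb4 (-0.055, SE 0.10) were not called. Of the exons of Psmb7, 46.8% overlapped those of Nek6 on the other strand, and strand use in counting was not stated, so reads of that stretch cannot be assigned with certainty.

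The core also holds genes known for restricted expression. Psmb11, the beta subunit of the thymus, had 2, 0 and 0 counts in the control cells and 0, 2 and 0 with esculetin, and 1 count in all of the liver libraries together. No fold is given, since a count of 0 allows up to 3 counts, or 0.147 to 0.218 CPM per library. Psma8, known as an alpha subunit of germ cells, had 476, 450 and 443 counts in the control cells and 294, 289 and 325 with esculetin. These were 23.5 ± 1.68 CPM (SD, n = 3) in the control and 19.8 ± 1.70 CPM with esculetin. The difference was not called (log2 fold change -0.25, SE 0.12, adjusted p = 0.0896), although the groups did not overlap and 3 of 16 alternative fits called it. In the liver Psma8 had between 2 and 21 counts per library.

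Of the 6 Psmc genes of the ATPase ring, 3 rose in the cells and none fell, with a median log2 fold change of 0.27. The share called was 50%, beside 57.7% of all genes tested, of which 28.7% were higher and 29.0% lower. Psmc4 had 41.1, 47.4 and 47.7 CPM in the control cells and 60.8, 63.8 and 81.9 CPM with esculetin. Each esculetin library lay above each control library, and the log2 fold change was 0.60 (SE 0.12, adjusted p = 0.00132), or 1.52-fold. Psmc2 rose by 0.42 (SE 0.14, adjusted p = 0.0197) and Psmc5 by 0.33 (SE 0.11, adjusted p = 0.0191) on the log2 scale. The call of Psmc2 was lost in 3 of 16 alternative fits, and that of Psmc5 in 4. In Psmc5, 39.5% of the exons overlapped those of Smarcd2 on the other strand. Psmc1 (0.20, SE 0.09, adjusted p = 0.0854), Psmc6 (0.19, SE 0.10) and Psmc3 (-0.00086, SE 0.11) were not called.

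In the rest of the base, Psmd1, a large scaffold on which ubiquitin receptors sit, had 139, 131 and 143 CPM in the control cells and 169, 189 and 217 CPM with esculetin. The rise was 0.48 on the log2 scale (SE 0.10, adjusted p = 0.00158) and the groups did not overlap. Psmd4, a ubiquitin receptor, rose by 0.28 (SE 0.08, adjusted p = 0.0143), a call lost in 2 of 16 alternative fits. Psmd2, the other large scaffold, had a log2 fold change of 0.18 (SE 0.10, adjusted p = 0.148).

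The lid held both the largest fall and 1 of the 2 largest rises among the members. Psmd8, a lid subunit, had 386, 412 and 434 CPM in the control cells and 233, 255 and 253 CPM with esculetin. This was the smallest p-value of any member, with a log2 fold change of -0.73 (SE 0.08, adjusted p = 2.27e-05), or 1.66-fold lower. Psmd14, the deubiquitinase of the lid, had 115, 112 and 105 CPM and then 76.6, 92.2 and 90.9 CPM, a log2 fold change of -0.35 (SE 0.09, adjusted p = 0.00737). The groups did not overlap in either gene. In the opposite direction, Psmd12 had 59.3, 56.4 and 55.4 CPM in the control cells and 67.8, 90.4 and 99.5 CPM with esculetin, a log2 fold change of 0.59 (SE 0.13, adjusted p = 0.00191). Psmd6 rose by 0.34 and Psmd11 by 0.23 on the log2 scale, and their calls were lost in 2 and 4 of 16 alternative fits. Psmd3 (0.078, SE 0.09), Psmd7 (0.24, SE 0.11, adjusted p = 0.0697) and Psmd13 (-0.20, SE 0.10, adjusted p = 0.107) were not called. In Psmd13, 30% of the exons overlapped those of Cox8b and 11.2% those of Sirt3, both on the other strand. Sem1, the small lid protein that carries no Psm number, went from 79.9, 75.5 and 70.2 CPM to 53.4, 42.9 and 46.4 CPM, a log2 fold change of -0.66 (SE 0.10, adjusted p = 0.000204).

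Among the genes with a Psmd number are 3 assembly chaperones, which help to build the base and leave the finished particle. Psmd9 had 30.8, 36.0 and 33.2 CPM in the control cells and 17.1, 21.0 and 25.4 CPM with esculetin, a log2 fold change of -0.65 (SE 0.14, adjusted p = 0.00235). Psmd10 (gankyrin) went from 30.6, 28.3 and 28.7 CPM to 24.2, 21.0 and 23.4 CPM, a log2 fold change of -0.35 (SE 0.11, adjusted p = 0.0154), and its call was lost in 2 of 16 alternative fits. Psmd5 (0.057, SE 0.09) was not called. The list of assembly chaperones of core and cap had 8 tested genes, of which 3 fell (Psmd9, Psmd10 and Psmg4) and 0 rose. Its median log2 fold change was -0.32. The share called was 37.5%, beside 57.7% of all genes tested, of which 28.7% were higher and 29.0% lower. Psmg4, a chaperone of the alpha ring, had a log2 fold change of -0.56 (SE 0.13, adjusted p = 0.00415), and Pomp, the maturation factor of the core, one of -0.09 (SE 0.10, adjusted p = 0.451).

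Of the 20 calls, 10 were kept in all 16 alternative fits: Psma4, Psmc4, Psmd1 and Psmd12 in the higher direction and Psma5, Psma7, Psmb7, Psmd8, Psmd9 and Psmd14 in the lower. No called member changed its sign. The esculetin libraries of the cells did not move as 1 block. Replicate 1, which had the fewest counts (13752842), was the lowest of its group in 30 of 35 members, and replicate 3 was the highest in 29. Relative to the control mean, the median of the core genes was -0.21, -0.16 and -0.0072 on the log2 scale in the esculetin libraries, and that of the cap genes was -0.00012, 0.24 and 0.30. Without esculetin replicate 2, the cap genes called higher dropped from 8 to 4 and the core genes called lower from 5 to 3, and without control replicate 2 or control replicate 3 the latter count was also 3. In the same libraries, 5 of the 7 tested macrophage markers were called higher, beside 28.7% of all genes. The summed level of the macrophage list was 2104 to 2333 CPM in the control cells and 5490 to 8457 CPM with esculetin. Of 3 tested Kupffer cell markers, 2 were called higher and 1 lower (log2 fold change -1.98). The Kupffer cell list shares genes with the macrophage list, so these counts are not separate. The part of these markers in the changes of the members was not tested.

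**Figure D2:**
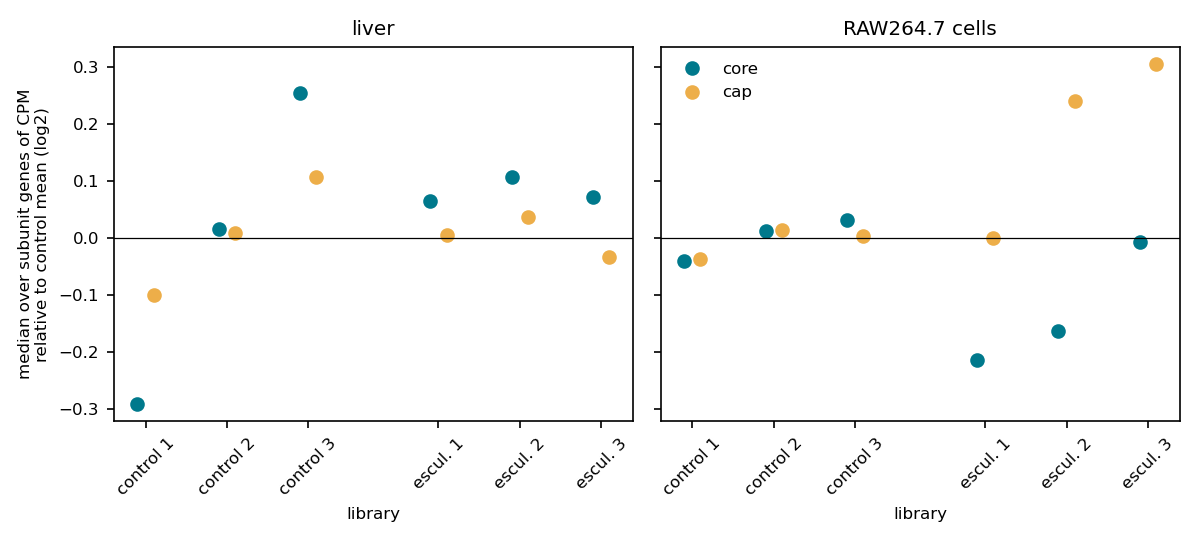
Median over the tested core or cap genes of the level in each library, in CPM relative to the control mean on a log2 scale, for liver (left) and RAW264.7 cells (right). Core and cap lie close together in the control cells, within 0.05 of 0, and apart in every esculetin library of the cells, where the cap lies above the core.

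In the liver no member was called, beside 0.0859% of all 12813 genes tested, of which 0.0312% were higher and 0.0546% lower. None of the 35 members reached an unadjusted p under 0.05, beside 8.37% of all genes, and none was called by DESeq2, by limma-voom or in any other alternative fit. The smallest unadjusted p was 0.0749, for Psmd9. Log2 fold changes ran from -0.26 to 0.33. Among core genes 14 of 15 values lay above 0, with a median of 0.08, and among cap genes 9 of 20, with a median of -0.02, beside -0.02 for all genes. Over 12791 genes, the liver log2 fold change had a Spearman's rho of -0.302 with the length of the canonical transcript. Over the 15 core genes this rho was -0.104. The cause of the core values was not tested. The median of the core turned to -0.03 without control replicate 1.

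That library was the lowest of the controls in 27 of 35 members, and control replicate 3 the highest in 27. The summed level of the core genes was 1282, 1545 and 1817 CPM in the controls and 1612, 1667 and 1660.5 CPM with esculetin, so that the control range enclosed the treated livers. Over 34 members without Psma8, the median coefficient of variation was 15.7% in the controls and 4.41% with esculetin. In the cells it was 4.19% and 10.7%.

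**Figure D3:**
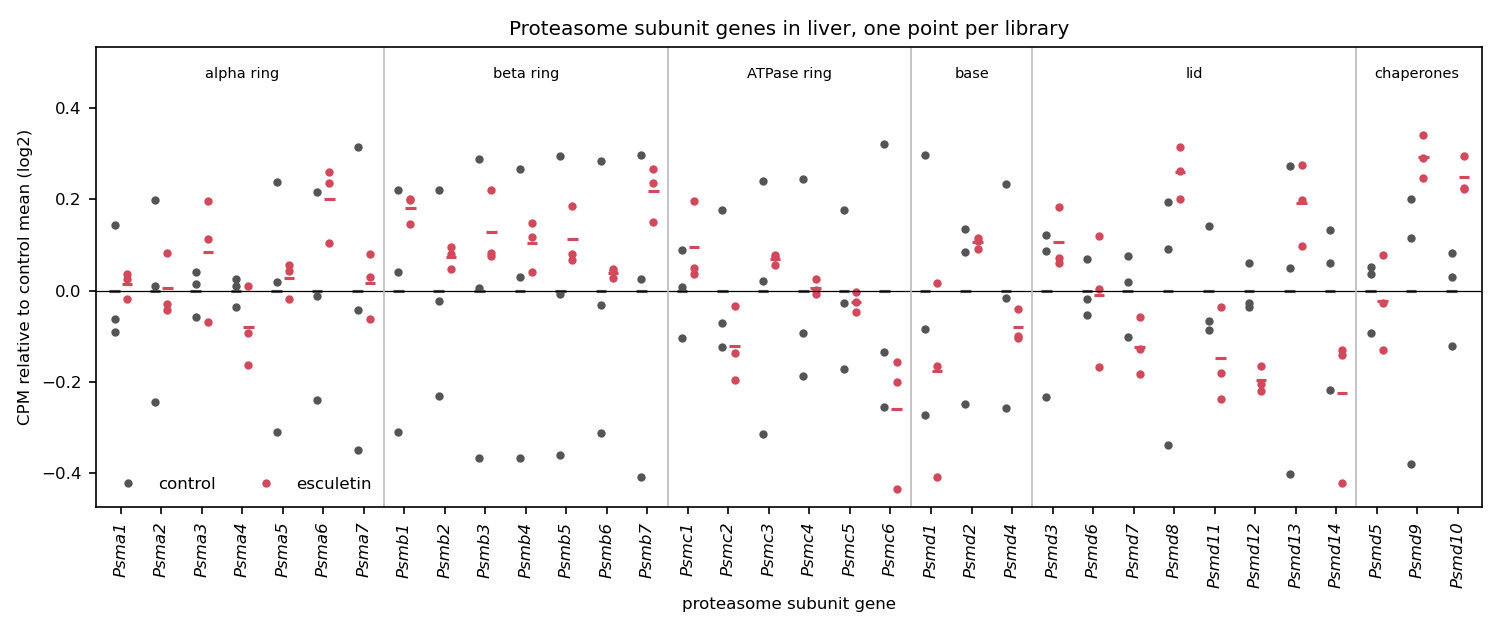
Level of each tested member in liver, as CPM relative to the control mean on a log2 scale, without Psma8 (2 to 21 counts per library). Each point is 1 library (3 control in grey, 3 esculetin in red) and each bar a group mean. Control and esculetin points overlap for all plotted genes but Psmd8, Psmd9, Psmd10 and Psmd12, and no member was called.

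The groups did not overlap for 4 of the 35 members in the liver, beside 14.5% of all genes. Psmd8 had 109, 147 and 158 CPM in the control livers and 159, 172 and 166 CPM with esculetin (log2 fold change 0.26, SE 0.14, unadjusted p = 0.0932 and adjusted p = 0.649 in edgeR). Psmd9 had 30.2, 42.6 and 45.2 CPM and then 46.6, 49.8 and 48.1 CPM, a log2 fold change of 0.29 (SE 0.15). Psmd10 had 9.21, 8.29 and 9.56 CPM and then 11.1, 10.5 and 10.5 CPM, a log2 fold change of 0.25 (SE 0.16). Psmd12 was lower, with 62.3, 58.3 and 58.7 CPM in the controls and 53.3, 51.3 and 51.8 CPM with esculetin, a log2 fold change of -0.20 (SE 0.11). The proteolytic subunits Psmb5 (0.11, SE 0.15), Psmb6 (0.039, SE 0.15) and Psmb7 (0.22, SE 0.16) had overlapping groups. The 7 hepatocyte markers were expressed in every liver library, with 106137 to 133662 CPM in sum. Of 7 Kupffer cell markers, 6 had a log2 fold change below 0 and none was called, with 348 to 401 CPM in sum in the controls and 314 to 356 CPM with esculetin. For 3 of these 7 the groups did not overlap, all lower with esculetin, beside 14.5% of all genes. An unadjusted p under 0.05 in edgeR was reached by 2 of them, beside 8.37% of all genes.

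The effects in cells and liver were set against each other in 1 model of all 12 libraries. The difference was called for 7 of 35 members, beside 27.1% of all genes. Psmd8 differed most, by -1.04 on the log2 scale (SE 0.17, adjusted p = 0.000359, cells minus liver), followed by Psmd9 with -0.99 (SE 0.22, adjusted p = 0.00288). For Psmd10 and Psmb7 the difference was -0.64 in each. In the other direction, the difference was 0.75 for Psmd12 (SE 0.17, adjusted p = 0.00359), 0.61 for Psmd1 and 0.55 for Psmc4. The call of the difference was kept in all 17 alternatives for Psmd8, Psmd9 and Psmd12, and was lost in 7 for Psmd1, in 6 for Psmc4 and in 3 each for Psmb7 and Psmd10. Psmd8, Psmd9, Psmd10 and Psmd12 were the members without overlap between groups in both tables, and for all 4 the directions in cells and liver were opposite. Of the 10449 genes tested in both tables, 9.90% had groups without overlap in both, and 6.06% had them with opposite directions. Material, dose, route and duration differ between the tables and cannot be told apart here.

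**Figure D4:**
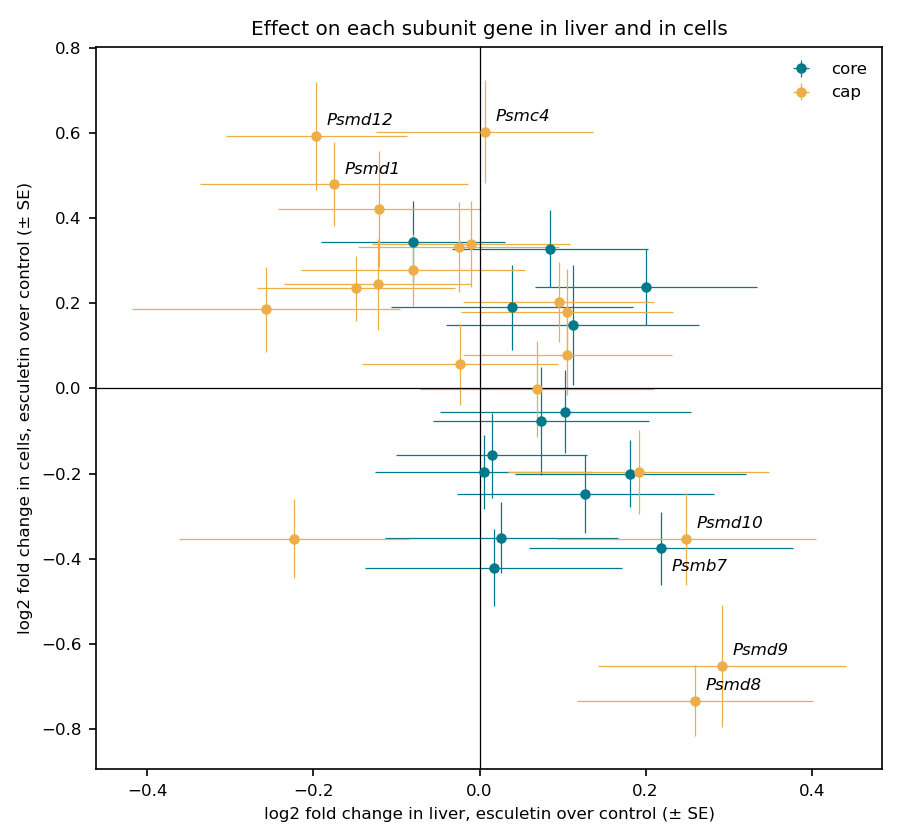
Log2 fold change (esculetin over control) of each member in liver (horizontal) and in RAW264.7 cells (vertical), with SE bars, core in teal and cap in yellow, without Psma8. Named genes are the 7 whose effects differed in edgeR. Psmd8 and Psmd9 sit at the lower right, and Psmd12 and Psmd1 at the upper left.

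Levels between genes were compared per kilobase of annotated exons in the control libraries. Because the tables were normalised separately, each has its own order. The middle of the members, from the lower to the upper quartile, ran from 11.4 to 35.9 CPM per kb in the liver, a ratio of 3.16, and from 12.5 to 33.6 CPM per kb in the cells, a ratio of 2.69. The liver order was led by Psmb6 with 67.4 ± 13.9 CPM per kb (SD, n = 3), and the next genes, Psmb5 with 53.4 ± 11.9, Psmb3 with 52.7 ± 11.8 and Psma6 with 52.7 ± 8.28, lay within 1 SD of each other, while their intervals of 1 SD overlapped that of Psmb6. In the cells Psmd8 led with 134 ± 7.84 CPM per kb, followed by Psma5 with 108 ± 0.893 and Psmd2 with 66.9 ± 2.16, each apart by more than their SD. Psmb5 held rank 2 in the liver and rank 25 in the cells, where it had 12.7 ± 0.835 CPM per kb, but its ranks were 13 and 33 with the length of the canonical transcript and 8 and 29 with that of the longest. The annotation names pseudogenes of Psma5, Psmb5, Psmb6 and Psmb7. How reads that match several places were counted is not given, so the levels of these genes are less certain. The assembly chaperones Psmd5, Psmd9 and Psmd10 were in the lower part of both orders, and Psma8 and Psmb11 were the lowest by exon length, whereas with the canonical length Psma8 ranked 32 in the cells, above Psmb5, Psmd9 and Psma3. Over 35 members the 2 orders had a Spearman's rho of 0.79, which describes genes that share a library and lengths. Exon lengths include long transcripts that may not be made in these samples. Counts were taken per gene, so dividing them by the shorter canonical length can overstate a level. For Psma8 the exon length was 12933 bases and the canonical length 1716 bases. Which of its transcripts gave the counts cannot be told from gene counts. With the length of the canonical transcript, the top of the liver order was Psmb3 with 201 CPM per kb, while Psmd8 remained first in the cells with 265 CPM per kb.

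Genes around the proteasome were taken as 8 lists. Their calls in the cells stand beside 57.7% of all genes tested, with 28.7% higher and 29.0% lower. In the cells the immunoproteasome and 11S activator list, which belongs to antigen processing, had 3 of 5 genes lower and 0 higher. Psmb9 had 10.6, 10.3 and 11.2 CPM in the control cells and 6.44, 9.13 and 5.35 CPM with esculetin, a log2 fold change of -0.62 (SE 0.19, adjusted p = 0.0156). Psmb10 fell by 0.59 (adjusted p = 0.0376) and Psmb8 fell by 0.28 (adjusted p = 0.0352), and the calls of both were lost in 7 of 16 alternative fits and that of Psmb9 in 2. In the list of other activators and inhibitors, Psme3 (0.34) and Psme4 (0.41) rose and the third gene, Psmf1, was not called. The call of Psme4 was lost in 3 of 16 alternative fits. In the list of receptors and deubiquitinases of the cap, 5 of 14 genes rose and 4 fell. Ecpas, an adaptor of the proteasome, rose by 0.42 and Zfand5 by 0.38 (lost in 1 of 16 alternative fits), whereas Sem1 and Ubqln4 (-0.51) were lower.

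The route to proteasome genes through Nrf1 had 5 genes higher and 2 lower of 10 tested. The share called was 70%, beside 57.7% of all genes. Nfe2l1, which encodes Nrf1 itself, had 358, 404 and 387 CPM in the control cells and 199.8, 229 and 246 CPM with esculetin. The log2 fold change was -0.77 (SE 0.10, adjusted p = 4.62e-05), or 1.70-fold lower, and the groups did not overlap. Nfe2l2, which encodes the related factor Nrf2, had 98.0, 92.7 and 93.8 CPM and then 135, 155 and 175 CPM, a rise of 0.71 (SE 0.10, adjusted p = 0.000112). Of the small Maf partners of both factors, Mafk fell by 0.53 and Maff rose by 0.54. Of the 5 members with an antioxidant response element core in the printed window, 1 rose in the cells (Psmd12), 1 fell (Psmd9) and 3 were not called (Psmb5, Psmb6 and Psmc6). Of the 4 members with the ETS motif, Psmc2, Psmd6 and Psmd12 rose and Psmc1 was not called. Among the 17 cap genes with a promoter window, 8 were called higher, beside 28.7% of all genes. The cap genes without a window, Psmc3, Psmd3 and Psmd7, were not called. The calls of Psmc2 and Psmd6 were among those lost in some alternative fits.

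In the list of the unfoldase VCP and its cofactors, 5 of 11 genes rose, Faf2 by 0.57 among them. In the same list 4 fell, among them Yod1 (-0.91), Faf1 (-0.69) and Ubxn1 (-0.50). The share called was 81.8%, beside 57.7% of all genes. The list of ubiquitin and its activation had 4 genes higher and 5 lower of 12, a share called of 75%. Among conjugating enzymes, Ube2r2 fell by 0.66, Cdc34 fell by 0.50 and Ube2d2a rose by 0.73, and Uba1, which activates ubiquitin, fell by 0.52. In the list of nuclear import with midnolin, which had 3 genes, Akirin2, which carries proteasomes into the nucleus, fell by 0.70 (adjusted p = 0.000164) and Ipo9 rose by 0.26 (lost in 3 of 16 alternative fits), with Midn not called. In the liver none of the 8 lists had a called gene, beside 0.0859% of all genes tested. In the Nrf1 route list there, 9 of 10 tested genes lay below 0, with a median log2 fold change of -0.22. An unadjusted p under 0.05 in edgeR was reached by 3 of these 10 and by 2 of 14 receptors and deubiquitinases, beside 8.37% of all genes. The other lists had no such gene. Nfe2l1 had a log2 fold change of -0.18 (SE 0.13) in the liver and Pomp one of 0.23 (SE 0.14), and Psmb8, Psmb9 and Psmb10 lay between 0.06 and 0.18. The lists were compiled with results of these data known.

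**Figure D5:**
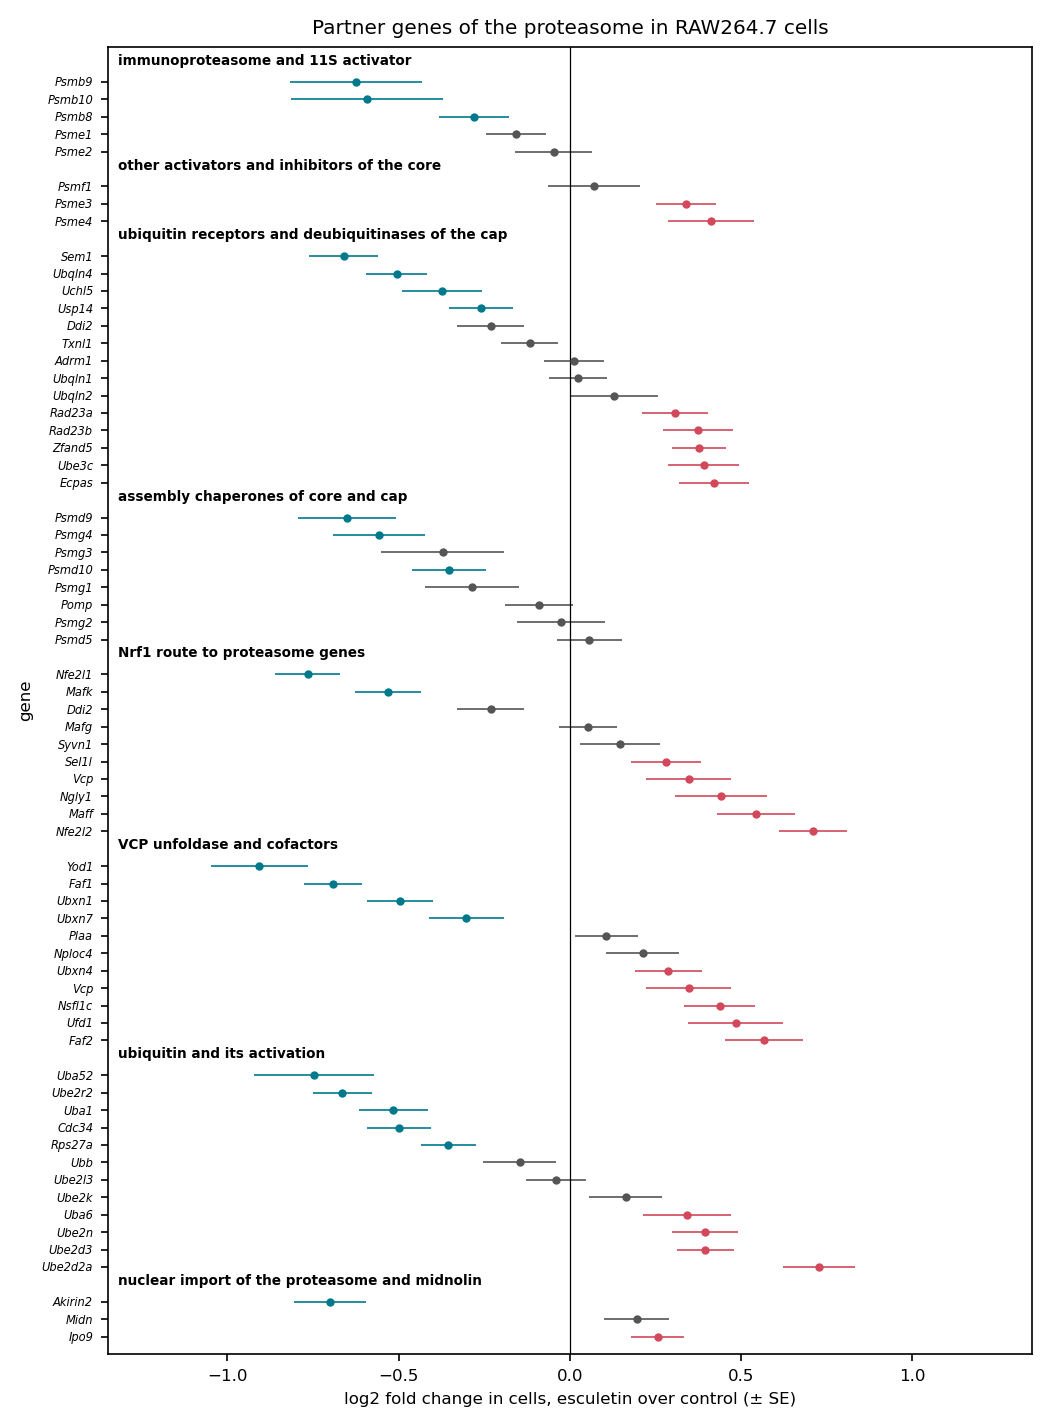
Log2 fold change (esculetin over control, with SE bars) in RAW264.7 cells of the tested genes in 8 lists around the proteasome, each list under its name. Red marks genes called higher, teal genes called lower and grey genes not called. Rises and falls occur side by side in most lists, while the immunoproteasome and assembly chaperone lists have no gene called higher. Those lists hold 5 and 8 tested genes, and 28.7% of all genes were called higher.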

How the data were processed

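The deposited values were raw counts per gene, 1 table for liver and 1 for cells; the authors aligned paired-end reads to GRCm39 with HISAT2 2.2.1 and counted with featureCounts. Strand setting, multi-mapping and annotation release are not given in the sources used here. No sample column was left unused. Total counts were 13752842 to 20346460 per library; intervals for counts of 0 cover counting error only. Each table was fitted in R 4.3.3 with edgeR 4.0.16 (filterByExpr, TMM, quasi-likelihood test, two-sided, Benjamini-Hochberg over all tested genes, calls at adjusted p under 0.05), which was tested on simulated data. CPM used TMM factors. With 3 against 3 libraries an exact permutation test cannot go below p = 0.1, so p-values rest on error shared across genes. Alternatives were other scalings, filters, DESeq2 1.42.0, limma-voom 3.58.1, other thresholds, a replicate block, each library left out, and, chosen after seeing the data, removal of length or GC trends and the length of the canonical transcript. The 16 alternative fits are those that keep the adjusted p threshold. Members and lists were chosen with earlier results of these data known. By the naming rule, members were named at least once, with full values for called members of smallest p or largest change, the proteolytic subunits, Psmb11 and Psma8; from each list up to 4 called genes with the smallest p, and Psmb8, Psmb9, Psmb10, Nfe2l1 and Pomp. A single gene was left out of the lists and is not reported here.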

Additional observations from a re-analysis of the deposited data

Results flagged for a closer look

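For 7 members the effect of esculetin differed between cells and liver in a test of the difference itself (edgeR, adjusted p under 0.05, cells minus liver on the log2 scale). The differences were -0.64 for Psmb7, 0.55 for Psmc4, 0.61 for Psmd1, -1.04 for Psmd8, -0.99 for Psmd9, -0.64 for Psmd10 and 0.75 for Psmd12. Of these calls, those of Psmd8, Psmd9 and Psmd12 were kept in all 17 alternatives, whereas that of Psmd1 was lost in 7, that of Psmc4 in 6 and those of Psmb7 and Psmd10 in 3 each. The 7 of 35 members stood beside 27.1% of all genes. Groups of 3 were too small to look for single outlying libraries.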

How the results depend on the processing

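In the liver, 0 members were called under every alternative, and the medians with 1 library left out ran from -0.03 to 0.19 for the core and from -0.06 to 0.04 for the cap. In the cells, DESeq2 called 3 core genes lower in place of 5. The study's criterion called 0 and 0 core genes and 1 and 2 cap genes higher and lower, and edgeR with a fold over 1.5 called 0, 0, 2 and 2. Removing the length trend moved the core median from -0.16 to -0.061. With 1 library left out, core genes called lower numbered 3 to 7 and cap genes called higher 4 to 11 (11 without esculetin replicate 1, 4 without esculetin replicate 2), core genes called higher 2 to 4 and cap genes called lower 3 to 5. For the difference of effects, 1 core gene was called, but 4 with library size only and 3 with limma-voom. With 1 library left out the core count ran from 0 (without liver control replicate 2 or liver esculetin replicate 2) to 6 (without liver control replicate 3), with 2 without liver control replicate 1 or cells esculetin replicate 1, and the cap count from 4 to 11 (11 without liver control replicate 1). The quartile ratio of liver levels per kb was 2.59 with the longest and 3.26 with the canonical transcript. The cause of these moves was not tested.

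Replicate numbers were shared between groups. The deviations of same-numbered libraries correlated at 0.14, -0.0053 and 0.10 in liver and 0.16, -0.030 and 0.080 in cells. Those of differently numbered libraries ran from -0.15 to 0.089 in liver and from -0.17 to 0.11 in cells. Whether same-numbered libraries were paired cannot be told from so few values. With a replicate block, 0 members were called in liver and 3 and 5 core and 9 and 4 cap genes higher and lower in cells; 4 core and 6 cap genes were called for the difference.

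Among the effects of the genes named with values, 13 turned their sign (5 in liver and 8 in cells, in 12 genes), none of them called in the table where it turned. In liver, Psmb6 was -0.013 with library size only and -0.067 without the length trend, and Psmb10 -0.0047 without it. In cells, Psmc3 was 0.015 with RLE factors, 0.00073 with upper quartile scaling, 0.013 with a filter of 1 CPM, 0.015 with DESeq2, 0.079 without the length trend and 0.15 without the GC trend. Psmd5 was -0.011 with library size only, -7.2e-05 without the length trend and -0.041 without the GC trend. Psmb4 was 0.078 and 0.047 and Pomp 0.069 and 0.054 without these trends, and Psmc6 was -0.086 without the GC trend. With 1 library left out, liver values ran from -0.53 to 0.71 for Psma8, -0.034 to 0.27 for Psmb5, -0.090 to 0.19 for Psmb6, -0.12 to 0.30 for Psmb8 and -0.097 to 0.21 for Psmb10. Cell values ran from -0.20 to 0.060 for Psmb2, -0.14 to 0.019 for Psmb4, -0.025 to 0.24 for Psmb5, -0.097 to 0.12 for Psmc3, -0.016 to 0.14 for Psmd3 and -0.035 to 0.12 for Psmd5.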
